A study of Homo sapiens with 6 samples.

Results

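A set of 10 genes of the IAP and BCL2 families was followed in Hep3B cells with and without knockdown of NXN: BIRC2, BIRC3, BIRC6 and XIAP among the inhibitors of apoptosis (IAPs), their antagonist DIABLO, the pro-survival proteins BCL2, BCL2L1 and MCL1, and the BH3-only proteins BCL2L11 and BID. They were listed by name as regulators of apoptosis, with earlier results of these data known. They made up 10 of the 23406 features in the expression tables, and all 10 were among the 14071 features that passed the filter on low counts. Hep3B is a human hepatoma cell line of epithelial type. NXN encodes nucleoredoxin, an oxidoreductase of the thioredoxin family. The comparison asks how gene expression differs when NXN is knocked down.

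The data were 6 RNA sequencing libraries, 3 labelled shControl (genotype WT, a control shRNA plasmid) and 3 labelled shNXN (genotype NXN knockdown, an shRNA). Each group had 1 library on day 7, 1 on day 9 and 1 on day 11. Both groups came from 1 cell line, received lentivirus packaged in 293T cells and were selected for a week in 2 μg/mL puromycin, and the protocol can be read as counting the days from transfection or from the end of selection. The labels do not say which shRNA sequence was used or whether the 3 libraries of a group came from separate cultures. All p-values therefore measure only the spread between these samples, which may be technical. In tests that do not pair the libraries by day, that spread includes the days.

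Apoptosis through mitochondria is controlled by the BCL2 family. Pro-survival members such as BCL2L1 and MCL1 hold back the effectors BAX and BAK1, which form pores in the outer mitochondrial membrane, and BH3-only members such as BCL2L11 and BID oppose the pro-survival members or activate the effectors. Once the membrane is permeable, cytochrome c drives caspase activation and DIABLO is released, which binds IAPs and frees caspases from XIAP. BIRC2 and BIRC3 (cIAP1 and cIAP2) are ubiquitin ligases bound to TRAF2 at tumour necrosis factor receptors, where they sustain canonical NF-κB signalling. MCL1 is a short-lived protein on which hepatocytes and many hepatoma cells rely.

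BIRC2 and BIRC3 are neighbours on human chromosome 11. In GENCODE 29 (GRCh38), BIRC3 (ENSG00000023445) spans chr11:102317450-102339403 and BIRC2 (ENSG00000110330) spans chr11:102347211-102378670. Both lie on the plus strand, with 7807 bases between the end of BIRC3 and the start of BIRC2. Both genes had lower levels in every shNXN library, so their promoters are shown side by side. The sequences are the 250 bases before a RefSeq start (GRCh38.p14, plus strand), at chr11:102317234-102317483 for BIRC3 and chr11:102346964-102347213 for BIRC2. Capitals mark every match to GGGNNNNNCC on either strand, a loose form of the κB motif recognised by NF-κB.
BIRC3 promoter: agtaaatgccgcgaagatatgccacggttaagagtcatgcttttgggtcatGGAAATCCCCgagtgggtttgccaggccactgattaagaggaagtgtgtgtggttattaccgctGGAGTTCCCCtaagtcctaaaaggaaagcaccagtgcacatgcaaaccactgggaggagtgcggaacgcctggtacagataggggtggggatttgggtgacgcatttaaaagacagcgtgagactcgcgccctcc
BIRC2 promoter: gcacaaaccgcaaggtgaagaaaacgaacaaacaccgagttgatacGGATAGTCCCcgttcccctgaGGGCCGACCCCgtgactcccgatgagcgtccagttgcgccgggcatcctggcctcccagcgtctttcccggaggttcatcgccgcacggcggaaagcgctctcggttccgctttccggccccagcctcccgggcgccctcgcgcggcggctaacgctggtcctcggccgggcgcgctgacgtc
The BIRC3 stretch held 2 matches, beginning 199 and 135 bases before the start. The BIRC2 stretch held 3, beginning 204, 183 and 182 bases before the start, of which the last pair overlap each other. The letters are common. Of the 35116 RefSeq promoter windows that run from 250 bases before to 50 bases after a start, 58.7% held at least 1 match. Over that longer window the GC content was 53.3% for BIRC3 and 68.7% for BIRC2. RefSeq promoter entries were matched for 9 of the 10 genes, all but MCL1. BIRC2, BIRC6 and BCL2L1 had 2 entries each, XIAP 3, DIABLO 4 and BID 5. Only 1 entry per gene was used, so other starts may differ in their matches. In their 250 bases BCL2L11 held 4 matches, BIRC6 held 3, BCL2 and BID 2 each, XIAP and DIABLO 1 each, and BCL2L1 0. Whether the matches bear on expression was not tested.

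The summed estimated counts ran from 15349382 to 16332589 per library. NXN, the targeted gene, was at 181, 138 and 143 CPM (counts scaled to a common library size with TMM factors) in shControl cells on days 7, 9 and 11, and at 42.7, 47.5 and 39.5 CPM in shNXN cells. No shNXN library reached the lowest shControl library. NXN fell by 1.83 on the log2 scale (SE, the standard error, 0.16, with an adjusted p of 0.0378 from edgeR's quasi-likelihood test, Benjamini-Hochberg adjusted). All 9 hepatocyte markers searched (ALB, AFP and APOA1 among them) were at or above 1 FPKM (fragment counts divided by transcript length and library size), and their summed level was 6728 to 15540 FPKM in shControl and 2786 to 7745 FPKM in shNXN libraries. Of 9 markers of other cell types, 8 were in the table, and 6 of these were under 2 FPKM, with CD3E and KRT5 at 0. The other two, CD68 and NES, were expressed. The summed level of the 8 was 90.8 to 139 FPKM in shControl and 125 to 157 FPKM in shNXN libraries. The part of these marker shifts in the results below was not tested.

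Among the IAPs of the 10, BIRC2 was the gene whose fall passed edgeR's test without the day as a block. DESeq2, which also did not pair the libraries, called BIRC3 and BIRC6 as well. BIRC2 was at 75.7, 55.1 and 107 CPM in shControl cells on days 7, 9 and 11, and at 18.9, 12.1 and 28.0 CPM in shNXN cells. The groups did not overlap, and the shControl library was higher on each day. The means were 79.3 ± 26.2 and 19.7 ± 7.98 CPM (SD, n = 3). This gave a log2 fold change of -2.01 (SE 0.37, adjusted p = 0.0456, edgeR's quasi-likelihood test), or 4.03-fold lower. With the day entered as a block the log2 fold change was -2.04, with an SE of 0.13 and an adjusted p of 0.0142 (edgeR). In bulk RNA, fewer expressing cells and less RNA per cell cannot be told apart. The call was lost after correction for transcript GC content, where the log2 fold change was -0.86 (adjusted p = 0.0978, edgeR), and when single libraries were left out. Without the shControl library of day 7 or 11, or the shNXN library of day 7 or 9, the adjusted p was 0.133, 0.0776, 0.225 and 0.162 (edgeR) at log2 fold changes of -2.04, -1.68, -1.98 and -1.75. Each of these fits called 0 of all features, NXN included, so the loss was not particular to BIRC2.

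BIRC3, the closest relative of BIRC2, was at 106, 55.2 and 68.5 CPM in shControl cells and at 24.5, 9.56 and 39.5 CPM in shNXN cells on the same days. Again no shNXN library reached the lowest shControl library, with the gap narrowest on day 11. The means were 76.5 ± 26.2 and 24.5 ± 14.97 CPM (SD, n = 3), and the log2 fold change of -1.64 (SE 0.50) missed the threshold, at an adjusted p of 0.0840 (edgeR's quasi-likelihood test). It passed with the day as a block, at -1.80 (SE 0.36, adjusted p = 0.0293, edgeR). BIRC3 passed in DESeq2 without the block, at -1.63 (adjusted p = 0.0068, DESeq2), where 24.0% of features were called. It also passed when the day 11 shNXN library was left out, at -2.17 (adjusted p = 0.0150, edgeR), where 3706 of 14383 features were called. Leaving out any other library gave an adjusted p of 0.0991 to 0.2495 (edgeR), with log2 fold changes as small as -1.26. Those fits called 0 to 248 of all features. GC correction moved BIRC3 to -0.27, or -0.29 with the block.

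BIRC6, a giant IAP with ubiquitin-conjugating activity, lies on chr2:32357028-32618899. It was at 151, 232 and 202 CPM in shControl cells and at 59.8, 48.3 and 154 CPM in shNXN cells on days 7, 9 and 11. The groups overlapped through the day 11 shNXN library, which lay just above the day 7 shControl library. Its log2 fold change was -1.16, with an SE of 0.43 and an adjusted p of 0.122 (edgeR's quasi-likelihood test). Without that shNXN library it was -1.85 (adjusted p = 0.0022, edgeR), in a fit that called 3706 of 14383 features. Without the shNXN library of day 7 or day 9 it was -0.95 and -0.87, with adjusted p values of 0.317 and 0.311 (edgeR). Those fits called 0 of all features. DESeq2 on all libraries called BIRC6, at -1.15 (adjusted p = 0.0369, DESeq2), beside 24.0% of features.

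XIAP, which inhibits caspases directly, lies on chrX:123859724-123913979. It was at 55.5, 33.2 and 70.4 CPM in shControl cells and at 32.3, 30.3 and 40.5 CPM in shNXN cells. On each day the shControl library was the higher, but the groups overlapped because the day 9 shControl library was low. The log2 fold change of -0.63 (SE 0.29) did not pass the test (adjusted p = 0.173, edgeR), with the block or without it. Its sign turned after correction for transcript GC content, to 0.48 (adjusted p = 0.329, edgeR).

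DIABLO (chr12:122207663-122226568), the mitochondrial antagonist of these IAPs, was at 27.5, 35.1 and 29.4 CPM in shControl cells and at 26.7, 28.0 and 34.2 CPM in shNXN cells. The libraries of both groups were interleaved. The log2 fold change was -0.05, with an SE of 0.18 and an adjusted p of 0.862 (edgeR's quasi-likelihood test), and its sign turned to 0.23 after correction for GC content.

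**Figure D1:**
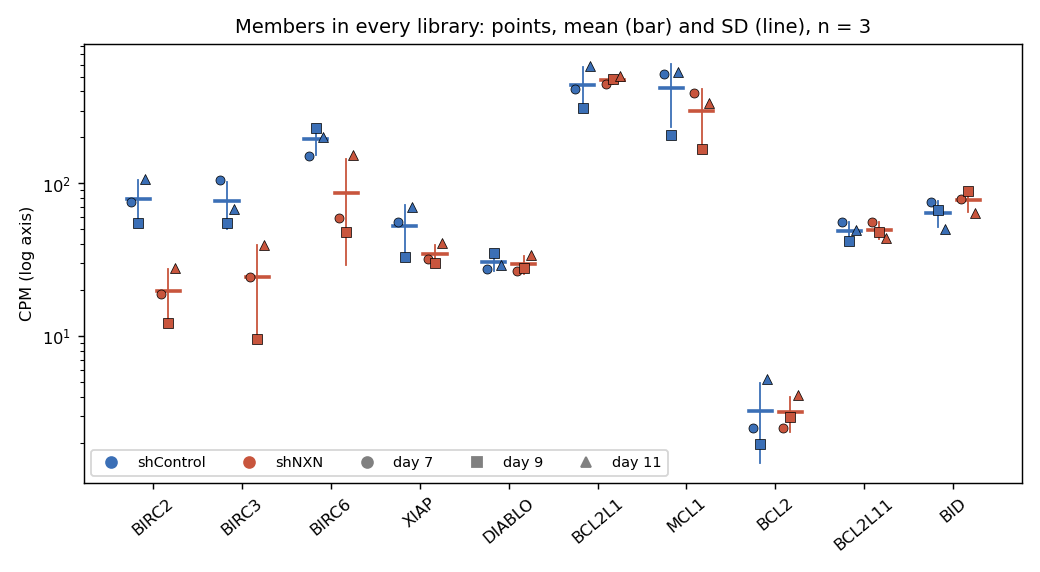
TMM-scaled CPM (log axis) of the 10 genes in each library, with shControl and shNXN side by side, 1 point per library shaped by day, the group mean as a bar and ± SD as a line (n = 3). BIRC2 and BIRC3 are the genes whose 3 shNXN libraries all lie below their 3 shControl libraries.

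None of the pro-survival BCL2 genes passed the test without the block. MCL1 (chr1:150574551-150579738) was at 522, 207 and 534 CPM in shControl cells and at 389, 168 and 336 CPM in shNXN cells on days 7, 9 and 11. Both groups were lowest on day 9, and the shNXN library was the lower on each day, although the groups overlapped. The log2 fold change was -0.50, with an SE of 0.43 and an adjusted p of 0.425 (edgeR's quasi-likelihood test). With the day as a block the estimate was nearly the same, -0.46, with a smaller SE of 0.11, and MCL1 passed (adjusted p = 0.0419, edgeR). This was the 1 alternative of 17 in which MCL1 was called. With the block and GC correction together it was -0.18 (adjusted p = 0.579, edgeR), with GC correction alone -0.23 (adjusted p = 0.851, edgeR), and on the log2(FPKM + 1) scale -0.16 (adjusted p = 0.753, limma).

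BCL2L1 (chr20:31664452-31723989), which encodes BCL-XL, was at 413, 313 and 592 CPM in shControl cells and at 448, 481 and 502 CPM in shNXN cells. The 3 shNXN libraries lay within the range of the shControl libraries. Its log2 fold change was 0.12, with an SE of 0.23 and an adjusted p of 0.727 (edgeR), and its sign turned to -0.22 after GC correction.

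BCL2 (chr18:63123346-63320128), the founding member of the family, was at 2.49, 1.97 and 5.21 CPM in shControl cells and at 2.49, 2.94 and 4.12 CPM in shNXN cells. It rested on 32 to 85 counts per library, and in both groups the day 11 library was the highest. No difference was detected. The log2 fold change was -0.02 (SE 0.43, adjusted p = 0.979, edgeR), and its sign differed between methods.

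Neither BH3-only gene passed the test. BCL2L11 (chr2:111119378-111168447), which encodes BIM, was at 55.7, 42.1 and 49.7 CPM in shControl cells and at 56.2, 47.9 and 44.2 CPM in shNXN cells. The groups covered nearly the same range, and the log2 fold change was 0.01, with an SE of 0.17 and an adjusted p of 0.977 (edgeR's quasi-likelihood test).

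BID (chr22:17734138-17774770), which caspase 8 cleaves to link death receptors to mitochondria, was at 75.5, 66.6 and 50.5 CPM in shControl cells and at 79.4, 88.6 and 64.5 CPM in shNXN cells. On each day the shNXN library was the higher, but the groups overlapped. Its log2 fold change was 0.27, with an SE of 0.20 and an adjusted p of 0.359 (edgeR).

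Of the 10 genes, 1 was called lower and 0 higher in shNXN cells. Of all 14071 tested features, 3.21% were called lower and 0.185% higher in the same edgeR fit. At an unadjusted p under 0.05, 3 of the 10 genes passed, beside 32.9% of all features, so that this count was at the background. With the day as a block, 3 of the 10 were called lower (BIRC2, BIRC3 and MCL1) and 0 higher, beside 17.0% and 6.28% of all features. DESeq2 called 3 of the 10 (BIRC2, BIRC3 and BIRC6), beside 24.0% of the features it gave an adjusted p. A fit without both day 11 libraries, chosen after seeing the data, called the same 3 genes as DESeq2, beside 31.8% of features. limma on log2(FPKM + 1) called 1, BIRC2, beside 2.04%. Without regard to a test, 2 of the 10 were lower in every shNXN library than in any shControl library and 0 were higher in every one, beside 21.5% and 19.0% of all tested features, so that the share of non-overlapping genes among the 10 was no larger than the background. An exact permutation test of 3 against 3 libraries cannot go below p = 0.1 (two-sided), which was the value for BIRC2 and BIRC3.

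Across the features, the fold change followed the GC content of the transcript. Over the 12740 tested features with a known GC content, Spearman's rho between GC content and log2 fold change was 0.79, a description across genes that share the same 6 libraries. The IAP genes among the 10 were poor in GC, with 34.8% in BIRC3, 38.0% in BIRC2, 39.0% in XIAP and 43.1% in BIRC6. The median of all tested features was 48.4%, and BIRC5, an IAP outside the 10, had 52.2%. BCL2L1 was richest in GC among the 10, at 56.9%. When the GC trend of each library was entered as an offset, 0 of the 10 genes were called by edgeR, beside 0.0355% of all features, and 2 had an unadjusted p under 0.05, beside 17.2%. BIRC2 then stood at a log2 fold change of -0.86 (adjusted p = 0.0978, edgeR), or 1.82-fold lower, and with the block added it was -0.86 again (adjusted p = 0.0559, edgeR). BIRC3 moved to -0.27 (adjusted p = 0.773, edgeR). BIRC6 moved to -0.72 (adjusted p = 0.277, edgeR). With the block and the GC correction together, 0 of the 10 genes were called, beside 0.995% of features. The correction takes out any group difference that follows GC content, whether technical or biological, and these cannot be told apart here. NXN remained lower after it, at -2.20 (adjusted p = 0.00965, edgeR).

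On the FPKM scale, which divides by transcript length, BIRC2 was at 30.3, 43.3 and 35.8 FPKM in shControl cells and at 17.9, 10.7 and 17.1 FPKM in shNXN cells. The groups did not overlap, and the log2 fold change on the log2(FPKM + 1) scale was -1.23 (adjusted p = 0.0493, limma), smaller than that of the counts. The length that the counts and the FPKM values together imply for BIRC2 was 1267 to 2987 bases in shControl libraries and 1089 to 1583 bases in shNXN libraries. For BIRC6 it was 9543 to 10463 bases and 5803 to 8184 bases. For BIRC3 it was 4158 to 4227 bases in shControl and 2859 to 4407 bases in shNXN. The length credited to these genes thus differed between libraries, and part of the difference in counts was absent from FPKM. Whether different transcripts were expressed or the estimation differed was not tested. On the same FPKM scale BIRC3 stood at a log2 fold change of -1.34 (adjusted p = 0.0874, limma) and BIRC6 one of -0.73 (adjusted p = 0.163, limma).

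The FPKM values also order the genes by level. BCL2L1 was the most abundant of the 10, with a mean of 232 FPKM over the 6 libraries (range 154 to 297 FPKM). MCL1 followed at 132 FPKM (79.4 to 178.5 FPKM), below BCL2L1 in 6 of 6 libraries, although their ranges overlapped. BID came next at 76.1 FPKM and overlapped with MCL1. A gap with no overlap separated BID from DIABLO, at 31.3 FPKM. From DIABLO through BIRC2 (25.8 FPKM), BCL2L11 (16.9 FPKM), BIRC6 (15.8 FPKM), BIRC3 (12.5 FPKM) and XIAP (12.1 FPKM), each gene overlapped with the next. BCL2 was last at 0.998 FPKM, below every XIAP value. These means pool both groups, and the order of the middle genes differed between them. In shControl cells the mean of BIRC2 (36.5 FPKM) lay above that of DIABLO (35.4 FPKM), and those of BIRC6 (19.6 FPKM) and BIRC3 (18.2 FPKM) above that of BCL2L11 (15.9 FPKM). In shNXN cells BIRC3 (6.86 FPKM) lay below XIAP (10.3 FPKM).

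Within the pro-survival group, BCL2L1 and MCL1 made up most of the summed FPKM. The median share of BCL2L1 was 59.2% in shControl libraries (52.9% to 61.4%) and 61.3% in shNXN libraries (53.5% to 69.6%). The share of MCL1 was 35.9% (32.7% to 42.6%) and 30.6% (21.98% to 39.6%). Both ranges overlapped between the groups. Within the IAP family, the share of BIRC2 was 26.9% in shControl (22.2% to 30.4%) and 13.7% in shNXN (9.20% to 14.4%), and that of BIRC3 was 12.2% (9.17% to 18.5%) and 6.76% (2.70% to 7.31%), with no overlap in either. BIRC5 (survivin), an IAP that acts in cell division, took 30.7% of the family in shControl (30.2% to 34.3%) and 61.2% in shNXN (47.0% to 72.0%). These shares sum to 100 in each library, so a fall in one gene raises the others, and they were not tested.

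**Figure D2:**
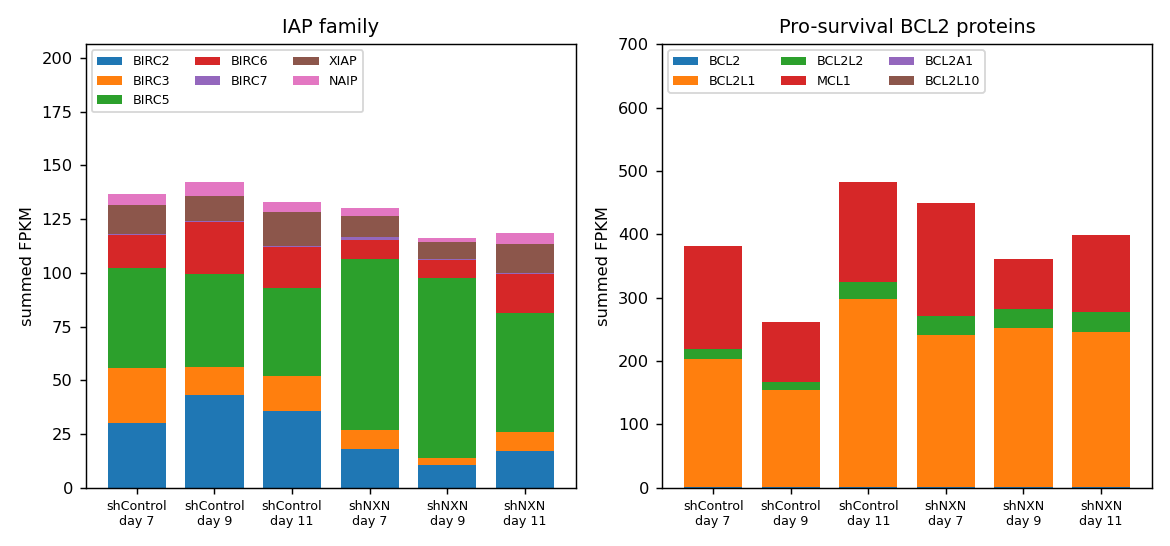
Summed FPKM (vertical axis, from 0) of the IAP family on the left and of the pro-survival BCL2 genes on the right, with 1 stacked bar per library divided by gene. BIRC5 takes a larger part of the IAP bar in the 3 shNXN libraries than in the 3 shControl libraries, and BCL2L1 and MCL1 fill most of every pro-survival bar.

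Ratios of opposing genes within a library need no scaling between libraries. They are ratios of counts not divided by length, so they are compared between groups only. The count ratio of XIAP to DIABLO was 2.02, 0.946 and 2.39 in shControl cells on days 7, 9 and 11 and 1.21, 1.08 and 1.18 in shNXN cells. The groups overlapped, and the difference in log2 ratio was -0.52 (exact permutation test, two-sided, p = 0.4). With FPKM in place of counts the difference was -0.05, and after GC correction of the counts it was 0.26.

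The count ratio of MCL1 to BCL2L11 was 9.37, 4.92 and 10.7 in shControl cells and 6.93, 3.51 and 7.61 in shNXN cells. It was lower in shNXN cells on each day, but the groups overlapped, with a difference in log2 ratio of -0.47 (exact permutation test, two-sided, p = 0.4). Permuting within days gave p = 0.25, the smallest value that 3 pairs allow in an exact test. With FPKM in place of counts the difference was -0.31. The count ratio of BCL2L1 to BID was 5.47, 4.71 and 11.7 in shControl cells and 5.65, 5.43 and 7.78 in shNXN cells, a difference of -0.11 on the log2 scale (exact permutation test, two-sided, p = 0.9). It was 0.29 without the day 11 shControl library, and -0.24 with FPKM in place of counts. The 3 p-values of this family were not significant before adjustment, and none could go below 0.1 across the groups.

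By day, BIRC2 kept nearly the same distance between the groups, with log2 differences of -1.97, -2.14 and -1.92 on days 7, 9 and 11. The distance was smaller on day 11 for BIRC3, at -2.09, -2.47 and -0.79, and for BIRC6, at -1.33, -2.25 and -0.39. MCL1 was lower on all 3 days, at -0.42, -0.30 and -0.67, and BID was higher on all 3 days, at 0.07, 0.41 and 0.35, before correction for GC content. With 1 library per group and day these differences have no error of their own, and no difference between days was tested. After the GC trend was taken out, BIRC2 was at -0.64, -0.79 and -1.05, while BIRC3 was at -0.37, -0.97 and 0.52. MCL1 was then at -0.095, 0.17 and -0.59 and BID at -0.040, 0.34 and 0.15, so neither kept 1 direction on all 3 days.

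A wider list of 50 apoptosis genes, which includes the 10, had 43 tested members. In the edgeR fit, 1 was called lower (BIRC2) and 0 higher, and their median log2 fold change was 0.12, beside 0.03 over all tested features. For the 10 genes alone the median was -0.27, with 7 of 10 below 0, beside 6842 of all 14071 tested features. After GC correction it was -0.04, with 5 of 10 below 0, beside 7045 of all tested features. With the day as a block, 5 of the 43 were called lower and 3 higher, beside 17.0% and 6.28% of all features, so that neither share stood out from the background. The 5 were BIRC2, BIRC3, MCL1, APAF1 and USP9X, and the 3 were BIRC5, FADD and TRAF2. After GC correction 0 of the 43 were called, and 9 had an unadjusted p under 0.05 in edgeR, near the 17.2% of all features. BIRC8, an IAP, had 0 counts in every library.

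The genes called with the block outside the 10 belonged to several steps of the pathway. BIRC5 was at 93.4, 84.8 and 83.5 CPM in shControl cells and at 139, 151 and 114 CPM in shNXN cells, with no overlap, and rose with the block by 0.62 on the log2 scale (SE 0.12, adjusted p = 0.0286, edgeR). It did not pass without the block (adjusted p = 0.0607, edgeR). APAF1, the scaffold of the apoptosome, was at 28.8, 32.7 and 43.6 CPM in shControl cells and at 17.0, 10.6 and 20.4 CPM in shNXN cells, again with no overlap (block log2 fold change -1.15, SE 0.21, adjusted p = 0.0249, edgeR).

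USP9X, a deubiquitinase that stabilises MCL1, was at 307, 429 and 374 CPM in shControl cells and at 101, 94.5 and 248 CPM in shNXN cells (block log2 fold change -1.46, SE 0.31, adjusted p = 0.0333, edgeR). The day 11 shNXN library was again nearest to the shControl libraries, as for BIRC6. TRAF2, the adaptor that recruits BIRC2 and BIRC3, was at 50.6, 54.9 and 64.9 CPM in shControl cells and at 76.2, 86.7 and 82.8 CPM in shNXN cells (block log2 fold change 0.53, SE 0.12, adjusted p = 0.0372, edgeR). FADD, which links death receptors to caspase 8, overlapped between the groups and had a block log2 fold change of 0.48 (SE 0.12, adjusted p = 0.0482, edgeR). After GC correction the log2 fold changes of BIRC5, APAF1, USP9X, TRAF2 and FADD were 0.37, -0.42, -0.56, 0.14 and 0.11, and none passed the test.

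By role, none of the 8 tested BH3-only genes and none of the 3 pore-forming effectors was called in the edgeR fit, with the block or without it. All 8 BH3-only genes had a log2 fold change above 0, with a median of 0.37, and some rested on few counts, down to 3 in a library. After GC correction their median was 0.19, with 1 of 8 below 0. The 6 tested IAP genes had a median of -1.09, with 5 of 6 below 0, and -0.37 after GC correction, with 4 of 6 below 0. Of the 9 genes of the apoptosome and caspases, 7 were below 0, with a median of -0.14. It turned to 0.24 after GC correction, with 3 of 9 below 0. Of all 14071 tested features, 6842 were below 0, and 7045 after GC correction. The median GC content was 40.6% for the IAP genes and 52.2% for the BH3-only genes.

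The genes whose pattern over the 6 libraries was most like that of BIRC2 were SENP7, ELMOD2 and UBE2W. Among 9854 features with a mean of at least 10 CPM, their centred log2 CPM had the smallest root mean square differences from that of BIRC2, at 0.11, 0.13 and 0.13. Their log2 fold changes were -2.14, -2.10 and -2.34, and their GC contents were 35.2%, 33.6% and 34.8%, all below that of BIRC2.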

How the data were processed

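RNA from 3 shControl and 3 shNXN Hep3B libraries had been sequenced by the authors, who deposited estimated counts per gene and, for the same features, FPKM values scaled to transcript length and library size. The aligner, counting program and transcript lengths are not given in the sources used here. The submitters' processing notes name mouse builds (GRCm38, mm10), although the features carry human Ensembl identifiers, so no build of the files could be stated and coordinates are those of GENCODE 29 (GRCh38). Between 15.1% and 18.8% of counts in a library were not whole numbers, which occurs when reads are shared among transcripts, so counts of paralogs are uncertain. There were 0 value columns without a sample.

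Rounded counts entered edgeR 4.0.16 under R 4.3.3, with TMM factors, filterByExpr and the quasi-likelihood test, with Benjamini-Hochberg adjustment over all 14071 tested features and a threshold of 0.05. The standard error was taken from the fold change and the F statistic. Differences by day used log2(CPM + 0.5). Alternatives were DESeq2 1.42.0, RLE factors, library size only, other count filters, the replicate block, a GC offset (natural spline, 5 degrees of freedom, on the longest GENCODE transcript, known for 90.5% of tested features and all 10 genes), limma 3.58.1 on log2(FPKM + 1) and log2(FPKM + 0.1), and each library left out. On the log2(FPKM + 1) scale the median of all tested features was 0.13, beside 0.03 for the counts. The count test was checked on simulated data with 200 changed genes. That simulation held no GC trend and no day effect, so it could not test how these affect the calls. Fits ran in R, and summaries in Python 3.11.15 with scipy 1.17.1.

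Replicate numbers follow the days in the labels. Deviations of same-numbered libraries correlated at 0.28, 0.30 and 0.43, and those of other pairs at -0.35 to 0.14. Deviations cancel within each group, which by itself lowers the correlations of other pairs when same-numbered ones are positive. The numbers were taken to pair the libraries in the fits with the block, while the edgeR fit without the block ignored the pairing. Replicates of a group differed beyond sampling noise (chi-square per feature 20.1 to 77.8).

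The 10 genes, the wider list and the alternatives were chosen with earlier results of these data known. Named genes were the 10, NXN, the wider-list genes with an adjusted p under 0.05 with or without the block or at 0 counts throughout, and the 3 features closest in pattern to the gene with the smallest p. Markers were named to check the cell line only.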

Additional observations from a re-analysis of the deposited data

Results flagged for a closer look

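The difference between the groups changed sign between days for 4 of the 10 genes. As log2 differences in CPM (shNXN minus shControl), DIABLO was at -0.043 on day 7, -0.32 on day 9 and 0.21 on day 11. BCL2 was at 0.0017, 0.48 and -0.31 on the same days, on 32 to 85 counts per library. BCL2L1 was at 0.12, 0.62 and -0.24, and BCL2L11 at 0.013, 0.18 and -0.17. For BCL2, BCL2L1 and BCL2L11 the shNXN library was the higher on day 9 and the lower on day 11, and for DIABLO the reverse held. Each day had 1 library per group, so the difference between days was not tested.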

How the results depend on the processing

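BIRC2, BIRC3, BIRC6, MCL1 and NXN stayed lower, and BID higher, in shNXN cells under all 17 alternatives. The adjusted p of BIRC2 ran from 5.8e-06 to 0.225 and was under 0.05 in 10 of the 17. The count of called features, 477 in the edgeR fit, was 3272 with the replicate block, 3311 with DESeq2, 826 and 929 with RLE factors and with library size alone, 818 with no filter, 5 with GC correction, 140 with block plus GC correction, 287 and 66 with limma on log2(FPKM + 1) and log2(FPKM + 0.1), 4519 without day 11, and 0 to 3706 with 1 library left out. Of the 10 genes, 1 was called in the edgeR fit, 3 with the replicate block (BIRC2, BIRC3 and MCL1), DESeq2 or without day 11, and 0 with GC correction, block plus GC correction or limma on log2(FPKM + 0.1), where 2, 2 and 3 had an unadjusted p under 0.05, beside 17.2%, 21.4% and 29.4% of all features. With 1 library left out, edgeR called 0 to 3, and 2 to 4 had an unadjusted p under 0.05, beside 18.6% to 41.9% of all features. The call was lost without the shControl libraries of day 7 or 11 or the shNXN libraries of day 7 or 9 (0 of the 10 genes each, and 0 of all features, NXN included). Without the day 11 shNXN library 3 of the 10 genes were called, beside 3706 of 14383 features. Of the 43 tested genes of the wider list, 1 was called, beside 477 of 14071 features. With the block 8 were called, beside 3272 of 14071 features. DESeq2 called 9, beside 24.0% of features, and the fit without day 11 called 13, beside 31.8%. With 1 library left out, 0 to 8 were called, beside 0 to 3706 features. GC correction, block plus GC correction and limma on log2(FPKM + 0.1) called 0. There, 9, 9 and 15 of 43 had an unadjusted p under 0.05, beside 17.2%, 21.4% and 29.4% of all features. The cause of these shifts was not tested.

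Log2 fold changes that turned sign all belonged to genes that were not called. With GC correction, without and with the block, XIAP was at 0.48 and 0.50, DIABLO at 0.23 and 0.24, BCL2L1 at -0.22 and -0.17, and BCL2 at 0.19 and 0.28. BCL2 was also at 0.063 with the replicate block, 0.00025 and 0.00012 with DESeq2 and RLE factors, 0.0014 with no filter, 0.16 and 0.30 with limma on log2(FPKM + 1) and log2(FPKM + 0.1) and 0.29 without day 11. With 1 library left out, DIABLO ran from -0.17 to 0.080, BCL2 from -0.27 to 0.57, BCL2L1 from -0.054 to 0.45 and BCL2L11 from -0.090 to 0.14. The ratio of XIAP to DIABLO turned to 0.26 with GC correction, and that of BCL2L1 to BID ran from -0.37 to 0.29 with 1 library left out. The cause was not tested. Leaving out 1 library assumes that the remaining pair varies like the other group, the low counts of BCL2 limit its precision, and with 3 libraries per group, 1 per day, moderate differences may have been missed.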
